A study of Mus musculus with 6 samples.

Results

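Open chromatin was compared between mouse embryonic stem cells with the Alkbh5 del-cIDR allele (2 libraries) and cells with an Alkbh5 knockout (KO, 2 libraries), which are 4 of the 6 ATAC-seq libraries of the study. The libraries were assigned by the genotype in their titles, and 2 wild-type (WT) libraries were used only to describe regions that differed between the mutants. All cells were E14TG2a, an established mouse embryonic stem cell line, kept with 2 inhibitors, PD0325901 at 1 µM against MEK and CHIR99021 at 3 µM against GSK3, beside the cytokine LIF (1000 U/ml) and 15% serum. LIF and these inhibitors hold such cells in a naive state. Every library also received nuclei of a spike-in, whose peaks, on a sequence named dm, were kept apart. The labels name no clone, no age of the culture and no separate cultures for the replicates, so differences between genotypes and differences between clones or cultures cannot be told apart, and the spread between replicates may be technical.

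ALKBH5 is an enzyme that removes the methyl group from N6-methyladenosine (m6A), the most common internal mark of messenger RNA. In the knockout the gene is disrupted. In del-cIDR the protein lacks a stretch called cIDR, IDR being short for intrinsically disordered region, a stretch of protein without a fixed fold. Such regions often mediate contacts with other proteins or RNA. The comparison of both alleles asks whether removing that stretch and removing the gene leave the same chromatin accessibility.

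ATAC-seq reads out accessibility through a transposase that inserts adapters where DNA is free of packed nucleosomes, which is mostly at promoters, enhancers and insulators. The number of tags over a site depends on how open it is, on how many copies of it a cell carries and on the share of cells in which it is open, and the peak lists do not measure these apart. The authors deposited 1 peak list per library. The summit height used below is the number of tags at the summit, solved from the deposited fold and p of each peak. Pairing regions with genes, and therefore the Alkbh5 locus, stem cell markers and markers of other cell types, was not analysed here.

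On chromosomes 1 to 19 the del-cIDR lists held 154058 and 151352 peaks and the KO lists 161122 and 147415. The means were 152705 ± 1913 and 154268 ± 9692 (SD, n = 2), so the genotypes differed by less than the KO replicates did. KO replicate 1 was the deepest of the 4 and KO replicate 2 the shallowest, with depths of 1.10 and 0.820 relative to WT replicate 1, and the del-cIDR libraries lay between them at 0.975 and 0.959. Merging the 4 lists wherever peaks overlapped by at least 1 bp gave 216770 regions, of which 100195 (46.2%) were called in every mutant library and 58390 (26.9%) in a single library. The del-cIDR replicates shared 69.9% of their combined regions and the KO replicates 67.1%. Libraries of different mutant genotypes shared 62.6% to 64.3%, less than either replicate pair.

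Each genotype had about as many regions that the other lacked. Both del-cIDR libraries and neither KO library called 9049 regions, 4.17% of all merged regions, here termed del-cIDR-only. Both KO libraries and neither del-cIDR library called 8993, or 4.15%, here termed KO-only. Seen from the other side, 7.35% of the 123152 regions called in both del-cIDR libraries were missing in KO, and 7.41% of the 121386 regions called in both KO libraries were missing in del-cIDR. A missing call does not mean closed chromatin, since a weak site can lie below the calling limit.

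That balance came from 2 opposite parts of the genome. Without chromosomes 6, 8 and 11, the del-cIDR-only regions numbered 8048 (4.61% of 174511 regions) and the KO-only regions 6030 (3.46%). On those 3 chromosomes the order was turned, with 1001 del-cIDR-only regions (2.37% of 42259) and 2963 KO-only regions (7.01%). On 15 of the 16 other chromosomes the del-cIDR-only regions were the more numerous. The exception was chromosome 12, with 385 del-cIDR-only (4.08%) and 405 KO-only regions (4.29%).

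The counts also moved with the calling rule. At a −log10 q of at least 5 there were 8266 del-cIDR-only and 5904 KO-only regions, whereas with peaks of at least 200 bp there were 2704 and 3110, so the larger set differed by rule. When 1 library was left out, each set had either a call or an absence of a call fewer to meet, and every count was higher. Leaving out del-cIDR replicate 1 gave 22326 del-cIDR-only and 15456 KO-only regions, and leaving out del-cIDR replicate 2 gave 23259 and 14866. Leaving out KO replicate 1 gave 18546 and 23028, and leaving out KO replicate 2 gave 13610 and 27474. No test is given for single regions, because 2 libraries against 2 allow no exact two-sided permutation p below 0.333.

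Chromosome 6 and chromosome 8 carried the sharpest contrast. On chromosome 6, 1202 regions (8.51%) were KO-only and 248 (1.76%) del-cIDR-only. Chromosome 8 had 1084 (8.14%) and 221 (1.66%). Chromosome 11 stood between these and the rest, with 677 KO-only (4.57%) and 532 del-cIDR-only regions (3.59%). On the other 16 chromosomes the KO-only percentage ran from 2.88 on chromosome 19 to 4.29 on chromosome 12, and the del-cIDR-only percentage from 4.08 on chromosome 12 to 5.07 on chromosome 1.

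**Figure D1:**
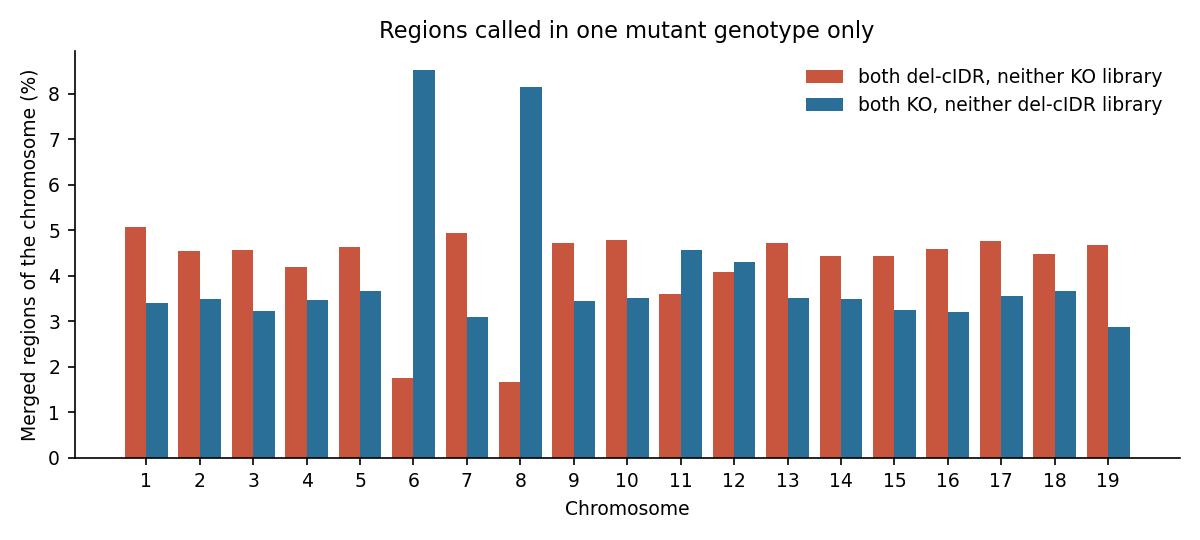
Percentage of merged regions on each chromosome that both libraries of one mutant genotype called and neither library of the other called (bars from 0; no error is drawn because each bar already needs both replicates). KO-only bars reach 8.51% on chromosome 6 and 8.14% on chromosome 8, where del-cIDR-only bars are lowest.

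The share of each list that fell on these chromosomes showed the contrast library by library. Chromosome 6 held 5.56% and 5.63% of the del-cIDR peaks, 7.05% and 7.02% of the KO peaks and 5.83% and 5.81% of the WT peaks. Both del-cIDR libraries lay below both WT libraries there, and both KO libraries above them. For chromosome 8 the shares were 5.35% and 5.34% in del-cIDR, 6.63% and 6.65% in KO, and 5.62% and 5.66% in WT, in the same order. The differences between the mutants were −1.44 and −1.29 percentage points, each with an exact two-sided permutation p of 0.333, the smallest possible here. On chromosome 11 the difference was −0.277 points, from 6.85% and 6.84% in del-cIDR against 7.12% in both KO libraries. The WT shares there were 6.66% and 6.79%, so both mutants lay above WT, unlike on chromosomes 6 and 8. For del-cIDR this was not particular to chromosome 11, since the shares of one list depend on each other. On chromosome 7 its shares were 6.01% and 6.06% against 5.93% and 5.96% in WT. On chromosome 12 they were below WT, at 4.29% and 4.27% against 4.46% and 4.49%. On the other chromosomes the mutants differed by −0.069 to 0.367 points.

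Heights at regions called in all 4 mutant libraries set chromosomes 6 and 8 apart as well. Heights were taken as log2 values relative to the median of the 16 other chromosomes of the same list. Median heights on chromosome 6 were −0.25 and −0.21 in del-cIDR and 0.29 and 0.26 in KO, a 1.42-fold difference in favour of KO. Chromosome 8 gave −0.10 and −0.05 against 0.39 and 0.36, a 1.36-fold difference. Replicates lay close together in each case, and the genotypes did not overlap (exact two-sided permutation p = 0.333). Chromosome 11 gave 0.13 and 0.14 against 0.29 and 0.26, and its difference of −0.14 turned to 0.22 when heights were scaled to spike-in regions. That scaling moved the median difference of all shared regions by 0.36 log2 towards del-cIDR, and left chromosomes 6 and 8 at −0.14 and −0.09. On the 16 other chromosomes the main difference ran from −0.07 to 0.07.

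**Figure D2:**
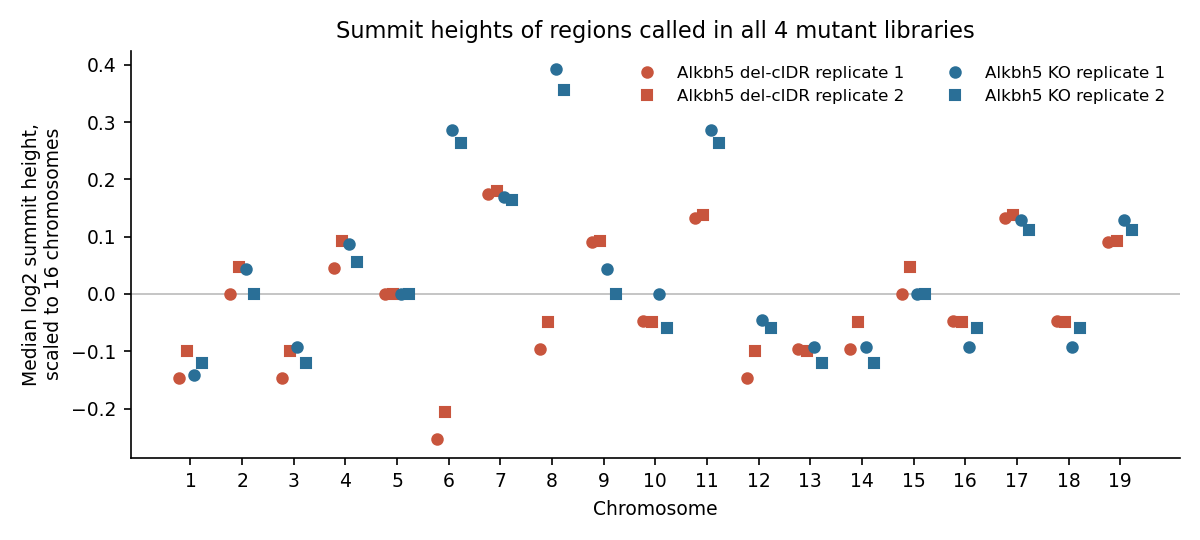
Median log2 summit height on each chromosome in each mutant library, relative to the 16 chromosomes other than 6, 8 and 11; circles are replicate 1 and squares replicate 2. The genotypes part most on chromosomes 6 and 8, where all KO points lie above 0.2 and all del-cIDR points below 0; the smaller gap on chromosome 11 reverses under spike-in scaling.

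In bins of 5 Mb the difference ran along the whole of chromosomes 6 and 8. All 30 bins of chromosome 6 lay between −0.64 and −0.33 log2 (del-cIDR minus KO), and all 26 bins of chromosome 8 between −0.65 and −0.34. Chromosome 11 was divided, with 9 of 25 bins at −0.3 or below. None of the 415 bins on other chromosomes reached 0.3 in either direction, and their range was −0.24 to 0.26.

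Chromosome 11 differed over its proximal part. From 11 to 56 Mb, a segment taken from earlier results on these libraries, 1877 regions called in all 6 libraries had heights relative to the WT mean of 0.02 and 0.05 log2 in del-cIDR and 0.50 and 0.54 in KO. Within it 358 regions (7.90%) were KO-only and 87 (1.92%) del-cIDR-only. Along the rest of the chromosome the mutants differed by −0.10 log2, against −0.50 inside, and del-cIDR-only regions were the more common, at 4.32% against 3.10%. Distal chromosome 12, from 52 to 120 Mb and also taken from earlier results, showed a smaller contrast. Its 2713 regions stood at −0.11 and −0.08 in del-cIDR and 0.10 and 0.15 in KO, against 0.03 and 0.06 in del-cIDR and 0.09 and 0.13 in KO on the rest of chromosome 12. The KO heights were thus much alike in both parts, and the del-cIDR heights were lower in the distal one. The mutants differed by −0.23 there and by −0.07 on the rest.

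Shorter segments stood apart elsewhere, and del-cIDR differed from WT in one of them. They were sought after the data had been seen, as runs of at least 3 adjoining bins of 250 kb off chromosomes 6, 8 and 11, and are described without a test. On chromosome 4 from 133000001 to 134000000 (GRCm39), 104 regions had heights of −0.63 and −0.64 log2 relative to WT in del-cIDR and of 0.29 and 0.37 in KO. The median of the differences of single regions was −1.02 log2, a 0.494-fold height in del-cIDR, and 100 of the 104 regions were lower in del-cIDR. Both mutants departed from WT inside it, in opposite directions, but the KO rise was not particular to the run. Outside it, KO stood at 0.25 and 0.39 in the bin at −625 kb from the centre, and at 0.27 and 0.32 at −1875 kb. Over the whole rest of chromosome 4 the KO medians were 0.08 and 0.11, and those of del-cIDR 0.01 and 0.04. In this 1 Mb, 26 of 193 merged regions (13.5%) were KO-only and 2 were del-cIDR-only. On the rest of chromosome 4 the difference was −0.08 log2, and 3632 of 6235 regions (58.3%) were lower in del-cIDR. There 3.32% of merged regions were KO-only and 4.23% del-cIDR-only. The run was picked for its low median, so a high share of lower regions follows in part from that choice.

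KO departed from WT in the other runs, while del-cIDR stayed closer to it. On chromosome 5 from 104500001 to 105250000, 32 regions stood at −0.02 and 0.09 in del-cIDR and at −0.66 and −0.62 in KO, with a median of single-region differences of 0.70 log2 (1.62-fold). Of the 76 merged regions there, 13 (17.1%) were del-cIDR-only and none was KO-only, against 4.56% and 3.69% on the rest of the chromosome. Chromosome 13 from 50500001 to 51250000 held 28 regions at 0.18 and 0.00 in del-cIDR and −0.40 and −0.56 in KO. Of its 79 merged regions, 9 (11.4%) were del-cIDR-only and 2 (2.53%) KO-only, against 4.66% and 3.51% on the rest of the chromosome. These last 2 runs rest on few regions each.

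Windows of 1 Mb gave further places where KO stood apart. From 20 to 21 Mb on chromosome 2, 81 regions lay at −0.01 and −0.03 in del-cIDR and at 0.54 and 0.68 in KO. Over regions called in all 4 mutant libraries, the mutant difference there was −0.60 log2, and −0.24 with heights scaled to the spike-in. The same scaling moved the runs from −0.99 to −0.63 on chromosome 4, from 0.72 to 1.08 on chromosome 5 and from 0.51 to 0.87 on chromosome 13. From 145 to 148 Mb on chromosome 4, the 3 windows lay at −0.41 to −0.21 in the KO libraries and at −0.06 to 0.14 in the del-cIDR libraries. For scale, 1378 such windows off chromosomes 6, 8 and 11 had mutant differences from −0.23 (5th percentile) to 0.13 (95th percentile), with a median of −0.07.

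**Figure D3:**
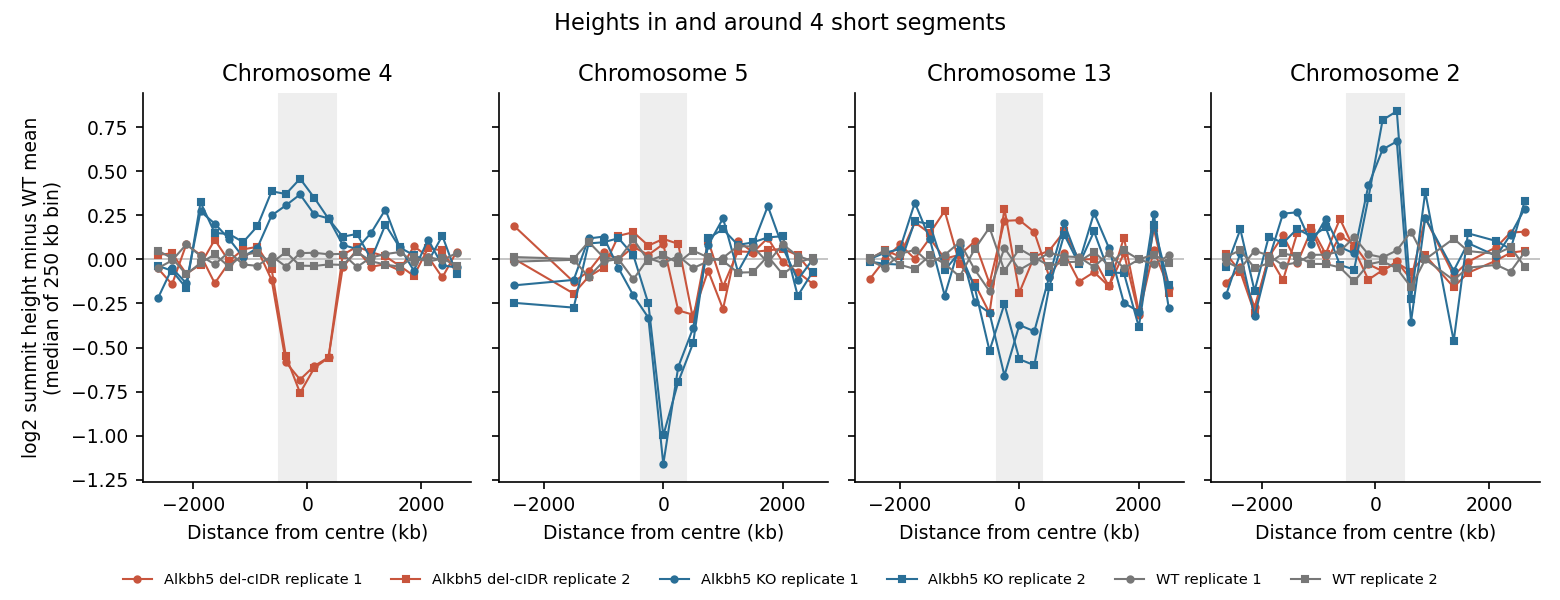
Median log2 summit height in 250 kb bins, relative to the WT mean, against distance from the centre of the 3 runs (chromosomes 4, 5 and 13) and of the chromosome 2 window, each shaded; lines are the 6 libraries. Both del-cIDR lines drop below −0.5 inside the chromosome 4 run, both KO lines drop in the chromosome 5 and 13 runs, and both KO lines rise in the chromosome 2 window.

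Most regions called in one mutant and not in the other were weak. Del-cIDR-only regions had median summits of 13 and 12 tags in the del-cIDR libraries, and KO-only regions of 12 and 10 tags in the KO libraries, where the lists begin at 6 tags (5 in KO replicate 2). Both summits reached 20 tags in 1149 (12.7%) of the del-cIDR-only and 620 (6.89%) of the KO-only regions. That limit is on tags before scaling, and KO replicate 2 is the shallowest list. Both summits reached the median summit of their own list in 1149 and 735 regions. Off chromosomes 6, 8 and 11, their median widths were 253 and 268 bp, against 518 bp for regions called in all 4 libraries.

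How often a region was missing in the other mutant depended on its height. Off chromosomes 6, 8 and 11, KO lacked 31.2% of the del-cIDR regions whose lower summit was at most 8 tags, and 14 of the 14731 (0.0950%) above 64 tags. In the other direction del-cIDR lacked 27.1% of the lowest KO regions and 5 of the 12652 (0.0395%) tallest. KO lacked the larger percentage in every height class, for example 5.52% against 2.73% at 17 to 24 tags. One of its lists, KO replicate 2, was the shallowest at a relative depth of 0.820, and the part of depth in this order was not tested. On chromosomes 6, 8 and 11 the order was the opposite in all 8 classes, with 48.5% of the lowest KO regions missing in del-cIDR and 18.3% of the lowest del-cIDR regions missing in KO.

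**Figure D4:**
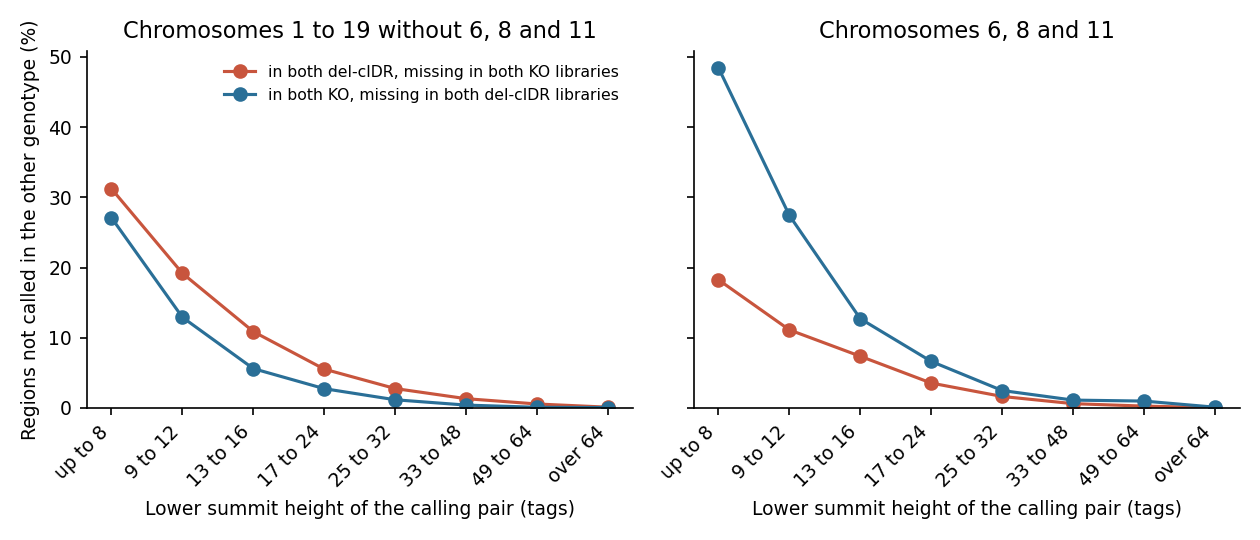
Percentage of regions called in both libraries of one mutant that neither library of the other called, by the lower of the 2 summit heights, off (left) and on (right) chromosomes 6, 8 and 11. Both curves end near 0 above 64 tags; KO lacks more on the left and del-cIDR more on the right, where the lowest class reaches 48.5%.

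The WT lists separated the 2 sets. Of the del-cIDR-only regions, 5687 (62.8%) were called in both WT libraries and 1108 (12.2%) in neither. Of the KO-only regions, 2910 (32.4%) were called in both and 3034 (33.7%) in neither. The percentages in both WT libraries were 62.9 and 34.0 without chromosomes 6, 8 and 11, and 96.8 for regions called in all 4 mutant libraries. For regions called in a single mutant library the percentage was 17.6, and for regions with any other pattern of calls 62.0. The del-cIDR-only percentage was thus near that of the last class, and the KO-only percentage below it. The WT lists were longer than the mutant lists, with 189594 and 180903 peaks on chromosomes 1 to 19. Del-cIDR-only regions were therefore more often part of the WT set than KO-only regions were, on and off these chromosomes. In those called in both, median WT summits were 14 and 16 tags for the del-cIDR-only and 11 and 13 tags for the KO-only regions, so the 2 sets also differed in WT height.

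KO-only regions lay more often than del-cIDR-only regions away from shared regions. Off chromosomes 6, 8 and 11, the median number of shared regions within 50 kb was 6 for del-cIDR-only, 5 for KO-only and 6 for shared regions. No shared region lay that near for 4.36%, 6.92% and 3.85% of them. Where no shared region was near, KO-only regions were the more numerous, at 417 against 351 del-cIDR-only. The KO-only percentage went down from 4.68 where no shared region was near to 3.04 where more than 10 were. The del-cIDR-only percentage was highest at 5.12 in between, with 3 to 5 such neighbours.

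Among the 100195 shared regions, heights of the genotypes did not overlap in 58624 (58.5%), and few of these differed by much. With 2 libraries against 2, a random order without ties leaves the genotypes without overlap at a rate of 0.333. The difference between the mutants had an SD of 0.465 log2 across regions, against 0.334 between the del-cIDR and 0.344 between the KO replicates. The first compares means of 2 libraries and the others single libraries, which vary more, so these SDs are not on the same scale. At least 2-fold higher without overlap were 1678 regions in del-cIDR (1.67%) and 2532 in KO (2.53%). Scaling to the spike-in gave 6197 and 496, so which genotype had the larger set depends on the scaling. Without chromosomes 6, 8 and 11 the counts were 1562 (1.93%) and 1139 (1.41%), with 55.6% of 81013 regions not overlapping, and on those chromosomes they were 116 (0.605%) and 1393 (7.26%). Without KO replicate 1 the count higher in del-cIDR was 2671, and without del-cIDR replicate 2 the count higher in KO was 3982.

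Set beside WT, these regions differed in how far each mutant lay from it. A total of 1674 regions were 2-fold higher in del-cIDR and called in both WT lists too. Their median height relative to WT was 0.19 log2 in del-cIDR and −1.01 in KO, and WT lay nearer to del-cIDR in 1501 (89.7%). In the 2425 regions 2-fold higher in KO, the medians were −0.38 in del-cIDR and 0.85 in KO, and WT lay nearer to del-cIDR in 1792 (73.9%). Without chromosomes 6, 8 and 11 the percentages were 89.7 and 67.5. Both mutants were set against the same WT libraries, and the regions were picked for the gap between the mutants, so these figures are a description. In both directions KO was more often the genotype farther from WT.

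Tall regions differed from short ones. Off chromosomes 6, 8 and 11, the median difference between the mutants was −0.01 log2 at mean heights of 10 to 20 and of 20 to 40 tags, −0.07 at 40 to 80, −0.13 at 80 to 160 and −0.20 above 160 tags. In the 2666 regions of the tallest class, the library medians were 2.63 and 2.67 in del-cIDR and 2.83 and 2.84 in KO. In that class 78.9% of regions did not overlap between genotypes, against 50.1% at 10 to 20 tags, while only 5 of its regions were 2-fold apart. The difference also varied less across tall regions, with an SD of 0.171 log2 against 0.494 at 10 to 20 tags. A given offset therefore parts more of the tall regions. Scaling moves all classes alike, so the step between classes does not rest on it. The sign within a class and the percentages without overlap do.

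**Figure D5:**
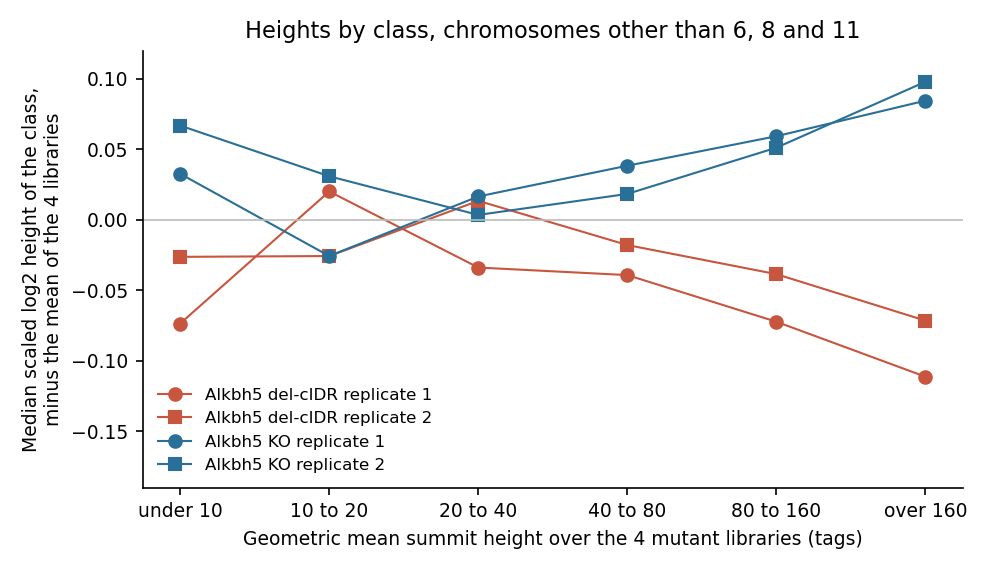
Median scaled log2 height in each mutant library minus the mean of the 4 libraries, by mean summit height in tags, on chromosomes other than 6, 8 and 11. From 20 tags upward the KO lines move up and the del-cIDR lines down, to 2.83 and 2.84 against 2.63 and 2.67 before the mean is taken off in the class above 160 tags.

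Single regions show the range of these differences. The 10 tallest del-cIDR-only regions with peaks of at least 200 bp all lay off chromosomes 6, 8 and 11, as did 8048 of the 9049 in the class. Of these 10, 7 were called in both WT libraries, against 62.8% of the class. The tallest, chr15:27517044-27517417, had 115 and 106 tags in del-cIDR and no call in KO or WT. A region at chr10:41682023-41682255 had 85 and 78 tags in del-cIDR and 94 and 125 in WT. At chr17:17417535-17417774 the heights were 80 and 86 tags in del-cIDR and 90 and 97 in WT. At both sites del-cIDR was below its WT heights, before scaling, and KO had no call. By contrast, chr7:95856148-95856683 had 73 and 81 tags in del-cIDR and 46 and 41 in WT, so del-cIDR was the higher of the 2. On chromosome 3, chr3:103116607-103116993 had 77 and 61 tags in del-cIDR and 37 and 32 in WT. Its neighbour chr3:103122734-103123182 was called everywhere, with 95 and 85 tags in del-cIDR, 17 in each KO library and 56 and 53 in WT. At the neighbour WT lay between the mutants, while the first site has no height in KO.

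Of the 10 tallest KO-only regions by the same rule, 3 lay off chromosomes 6, 8 and 11, against 6030 of 8993 in the class. Of these 10, 7 were called in both WT libraries, against 32.4% of the class. The tallest, chr18:30612958-30613209, had 117 and 85 tags in KO and 114 and 143 in WT, and was uncalled in del-cIDR. At chr8:84629636-84630206 the KO libraries had 97 and 81 tags and the WT libraries 41 and 35. A region off the 3 chromosomes, chr9:123722139-123722611, had 113 and 65 tags in KO and 52 and 63 in WT. KO exceeded both WT libraries at each of these last 2 sites. No WT call was made at chr11:100162466-100162710, with 56 and 58 tags in KO, or at chr6:90964892-90965449, with 56 and 43.

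Among shared regions, the 10 largest differences in favour of del-cIDR included 9 off chromosomes 6, 8 and 11. Of all 1678 regions 2-fold higher in del-cIDR, 1562 lay off them. At chr12:20856482-20857184, del-cIDR had 157 and 168 tags, KO 21 and 17, and WT 107 and 145, a 7.97-fold difference between the mutants after scaling. Heights at chr5:126842035-126842700 were 112 and 103 tags in del-cIDR, 14 and 17 in KO, and 90 and 98 in WT (6.46-fold). At chr10:81490801-81491566 they were 194 and 196, 40 and 30, and 155 and 170 (5.22-fold). In all 3, KO was far below WT and del-cIDR somewhat above it. The other 7 regions differed 4.36- to 4.90-fold.

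The 10 largest differences in favour of KO had 1 region off chromosomes 6, 8 and 11. Of all 2532 regions 2-fold higher in KO, 1139 lay off them. Del-cIDR was the closer to WT at the sites that follow. At chr6:97379576-97380410 the heights were 9 and 7 tags in del-cIDR, 40 and 34 in KO, and 13 and 18 in WT (5.01-fold). At chr11:19918660-19919167 they were 16 and 17, 77 and 63, and 19 and 23 (4.55-fold). The region off these chromosomes, chr1:167069850-167070498, had 17 and 12 tags in del-cIDR, 59 and 50 in KO, and 22 in each WT library (4.10-fold). KO was well above WT at all 3. The other 7 differed 3.93- to 4.36-fold.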

How the data were processed

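Per the submitters' processing notes, the authors used fastp, BWA, SAMtools, Picard, MACS2 and featureCounts on build GRCm39; tool versions, settings and any shift of reads to the cut site were not given in the sources used here. Each deposited list gives, per peak, a score, a fold (ratio) over background, −log10 p, −log10 q and the offset of the summit; these are the authors' values, called per library. Heights were solved from the deposited fold and −log10 p in the form that MACS2 uses, and were whole within 0.1 tags in 100% of peaks. Relative depth is the background divided by the narrowest peak width. Total reads are not analysed here. Peaks on chromosomes 1 to 19 were merged at 1 bp overlap, and the highest summit of a region was kept. Heights were divided by the median of shared regions on the 16 chromosomes other than 6, 8 and 11. Values relative to WT use regions called in all 6 libraries, scaled on those, and bins of 5 Mb and windows of 1 Mb needed 20 regions. Runs needed a median at least 0.4 log2 from that of all bins, with 5 regions per bin. Named regions were the 10 per direction with the highest lower summit (one genotype) or the largest difference (shared, at least 20 tags in the higher group), with peaks of at least 200 bp. The comparison, its chromosomes and the rules were chosen with earlier results of these data known. Scripts (Python 3.11.15, pandas 2.3.3, SciPy 1.17.1) were tested on simulated data. Alternatives were stricter q, equal list length, other merging, width and scaling, and leaving out each library. The gene tables used another build than the lists, so promoters and gene lists are not analysed here.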

Additional observations from a re-analysis of the deposited data

Results flagged for a closer look

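Outside chromosomes 1 to 19, a pair of signals set the mutants apart in both replicates. Spike-in peaks came to 1.32% of the chromosome 1 to 19 peaks in KO on average (1.29% and 1.34%), against 0.778% and 0.729% in del-cIDR and 0.886% and 0.867% in WT, so KO lay above both WT libraries and del-cIDR below them. Chromosome X peaks came to 2.39% on average in del-cIDR (2.40% and 2.39%), against 2.06% and 2.09% in KO and 2.16% and 2.10% in WT. Both were singled out because a signal in data that the comparisons leave aside was higher in 1 mutant than in the WT libraries.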

How the results depend on the processing

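Chromosome shares kept their direction in 21 of 21 alternatives and heights by chromosome in 26 of 27. The exception was chromosome 11, at −0.14 as reported and 0.22 with spike-in scaling. Both tallies include, for each chromosome, the setting with the replicate number as a block, which cannot change a value by construction. The heights of the 4 short segments kept their direction in 24 of 24, and spike-in scaling moved their size, as given with them. These segments were picked for a large difference in the same libraries. Chromosomes 6, 8 and 11 were likewise chosen with earlier results of these libraries known. None of these tallies is therefore independent support. With peaks of at least 200 bp, 2704 del-cIDR-only and 3110 KO-only regions were left; at −log10 q of at least 5, 5904 KO-only; and without chromosomes 6, 8 and 11, the runs and distal chromosome 12 (chosen after seeing the data), 5712 KO-only. Leaving out 1 library, which drops a required call or a required absence by construction, gave 13610 to 23259 del-cIDR-only and 14866 to 27474 KO-only regions, 1878 to 2671 shared regions 2-fold higher in del-cIDR and 3051 to 3982 higher in KO. Those counts were 6197 and 496 with spike-in scaling (581 spike-in regions); the count higher in KO was 1139 without chromosomes 6, 8 and 11, and 1005 without the runs and distal chromosome 12 as well. The cause was not tested for the settings other than leaving out libraries or chromosomes. With the replicate number as a block, the shares differed by −1.44 (chromosome 6), −1.29 (chromosome 8) and −0.277 points (chromosome 11) and the heights by −0.50, −0.45 and −0.14 log2 (exact sign-flip p = 0.5, the smallest possible). Replicate deviations of the genotypes had a correlation of 0.0062 across 100195 shared regions. That value cannot tell whether libraries of the same number shared a culture or a day, because a shift of a whole list leaves no trace in it. The lists begin at 5 or 6 tags, so openness below that is not measured, and the part of depth in the missing calls was not tested. The planned promoter share and its 250 bp window were not run.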
